A study of Mus musculus with 7 samples.

Results

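Antibody variable (V) genes were the genes of the deposited count tables whose symbols start with Ighv, Igkv or Iglv. There were 155 of them among 33864 genes: 79 heavy chain genes (Ighv), 73 kappa light chain genes (Igkv) and 3 lambda light chain genes (Iglv). Their use was read in the cells that the authors labelled B lymphocytes or follicular B lymphocytes, 3754 of 58473 cells. The tables of the 3 conditions listed different V genes (48 in WT, 147 in i4F and 21 in caerulein, with 10 in all of them), and a gene without a row was read as 0 unique molecular identifiers (UMIs, each standing for 1 captured mRNA molecule).

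Pancreata came from C57BL/6 mice of 2 months of age, and each mouse gave 1 single-cell library. The 2 WT and 3 i4F mice drank doxycycline at 1 mg/ml for 7 days. The i4F mice, of the genotype i4F-B, are heterozygous for inducible reprogramming factors (Oct4, Sox2, Klf4 and the oncogene c-Myc) in the Pparg gene and for the transactivator rtTA in the Rosa26 locus, and induction is not limited to a cell type. The 2 caerulein mice were wild type and received caerulein, a secretagogue that injures the pancreas, at 100 µg/kg in 7 injections a day on 2 days, so that genotype-matched controls without caerulein were the WT mice on doxycycline. WT 1 and the i4F mice carry 1 series of library names, and WT 2 and the caerulein mice another.

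A developing B cell joins 1 V segment to its heavy chain locus and 1 to a light chain locus, and usually keeps to that choice, which is called allelic exclusion. Kappa is joined before lambda in mice, and most mouse B cells carry a kappa chain. Plasma cells secrete the same antibody in bulk, so V gene mRNA is abundant in them and scarce in a resting B cell. Some V genes recur in B-1a cells, an innate-like B cell type of body cavities: Ighv11-2 with Igkv14-126 and Ighv12-3 with Igkv4-91 are antibodies known to bind phosphatidylcholine.

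In the GENCODE annotation of GRCm38, all 155 symbols were found. The Ighv genes lie on chromosome 12 between 113574245 and 116000461, the Igkv genes on chromosome 6 between 67555497 and 70704177, and the Iglv genes on chromosome 16 between 19085017 and 19260859. A V exon with at least 95% identity to that of another V gene belonged to 37 Ighv, 27 Igkv and 2 Iglv genes, and the reads of such genes may have been split between copies or lost, so their UMIs are uncertain. The sequences that follow are the last bases of the V exon (at most 300, in the sense direction) of both B-1a pairs, which carried the recurrent pairs described further on, and of the near-identical lambda genes, whose counts in kappa cells differed. Capitals mark the codon of the last in-frame cysteine, the residue at which the junction with the next segment begins.
Ighv11-2, chr12:114048241-114048540, minus strand: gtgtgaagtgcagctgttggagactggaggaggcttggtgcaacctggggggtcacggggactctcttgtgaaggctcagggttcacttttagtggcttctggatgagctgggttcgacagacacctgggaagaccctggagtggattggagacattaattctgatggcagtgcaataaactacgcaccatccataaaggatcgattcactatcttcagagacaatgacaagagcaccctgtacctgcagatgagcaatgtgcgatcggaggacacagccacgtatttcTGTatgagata
Igkv14-126, chr6:67896345-67896642, plus strand: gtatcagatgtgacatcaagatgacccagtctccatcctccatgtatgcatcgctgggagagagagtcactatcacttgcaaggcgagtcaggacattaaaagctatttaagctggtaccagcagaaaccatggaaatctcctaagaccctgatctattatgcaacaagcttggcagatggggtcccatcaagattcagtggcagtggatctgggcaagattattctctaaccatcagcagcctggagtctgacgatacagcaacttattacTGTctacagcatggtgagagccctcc
Ighv12-3, chr12:114366521-114366820, minus strand: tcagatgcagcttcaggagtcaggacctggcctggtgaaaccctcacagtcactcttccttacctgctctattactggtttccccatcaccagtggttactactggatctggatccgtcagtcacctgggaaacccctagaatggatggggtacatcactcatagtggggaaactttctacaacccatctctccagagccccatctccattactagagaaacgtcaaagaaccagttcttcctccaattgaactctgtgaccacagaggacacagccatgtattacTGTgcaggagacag
Igkv4-91, chr6:68768555-68768854, minus strand: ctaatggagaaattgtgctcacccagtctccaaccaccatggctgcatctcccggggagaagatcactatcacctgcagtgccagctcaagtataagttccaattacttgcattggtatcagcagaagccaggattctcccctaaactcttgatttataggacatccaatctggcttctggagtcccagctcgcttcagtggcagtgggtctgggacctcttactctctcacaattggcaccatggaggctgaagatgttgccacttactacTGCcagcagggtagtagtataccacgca
Iglv1, chr16:19085017-19085316, minus strand: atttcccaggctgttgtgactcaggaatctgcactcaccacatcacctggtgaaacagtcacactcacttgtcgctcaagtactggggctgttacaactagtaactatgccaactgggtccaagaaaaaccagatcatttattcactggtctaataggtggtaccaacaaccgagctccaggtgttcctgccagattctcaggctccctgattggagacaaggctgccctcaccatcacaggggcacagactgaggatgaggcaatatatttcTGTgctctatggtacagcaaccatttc
Iglv2, chr16:19260401-19260700, minus strand: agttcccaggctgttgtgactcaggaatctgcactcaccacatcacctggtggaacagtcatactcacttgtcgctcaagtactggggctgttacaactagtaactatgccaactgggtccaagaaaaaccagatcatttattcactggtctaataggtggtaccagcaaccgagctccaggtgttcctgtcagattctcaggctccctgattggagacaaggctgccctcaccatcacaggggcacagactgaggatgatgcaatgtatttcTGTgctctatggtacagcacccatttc
The V exons of Iglv1 and Iglv2 were 96.4% identical and differed by 11 edits, whereas those of the B-1a heavy chain genes Ighv11-2 and Ighv12-3 were 60.0% identical. The closest V gene to Ighv11-2 was Ighv11-1, at 98.7% identity, which had no row in any of the tables. Igkv14-126 had its closest relative, Igkv14-111, at 90.9%, and Igkv4-91 had Igkv4-60 at 88.0%.

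The libraries held 15469018 to 64784216 UMIs in 4327 to 15138 cells. B-labelled cells numbered 47 and 111 (WT), 477, 370 and 1357 (i4F), and 994 and 398 (caerulein). Their V genes gave 239 and 523 UMIs (WT), 785, 983 and 4058 (i4F), and 86 and 3 (caerulein). The assay reads the 3′ end of mRNA, far from the V segment, and UMIs were not corrected for gene length. Usage is therefore given as a gene's percent of the V UMIs of its chain in a mouse, and 1 cell with many UMIs can carry it. No cell barcode was shared between the B-labelled cells of any libraries, against 366 shared barcodes among all cells.

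The labels did not hold equally in the 3 conditions. UMIs of 10 B cell markers made up 61.6 to 94.0 per 10000 UMIs in the cluster named B lymphocytes of WT and i4F mice and 3.01 and 3.44 in that of the caerulein mice, where 10 dendritic cell markers reached 78.8 and 70.7 and 8 macrophage markers 111 and 119. The macrophage markers also stood at 37.1, 42.5 and 10.1 per 10000 in the i4F cluster named B lymphocytes, with a UMI in 72.0, 63.6 and 38.8% of its cells, against 2.04 and 5.10 in WT, and their part in the comparisons of i4F with WT was not tested. At least 1 UMI of 6 B lineage genes was found in 100% of the WT cells, in 90.4, 81.4 and 97.2% of the i4F cells and in 7.44 and 6.28% of the caerulein cells. The cluster named follicular B lymphocytes had cells of i4F mice only (24, 27 and 67), and its markers went against that name. There, 10 plasma cell markers (Jchain and others) reached 229, 178 and 256 per 10000 UMIs, while the 10 B cell markers stood at 25.2, 15.7 and 18.4, with 7, 5 and 9 of them detected and Blk at 0 in all 3 mice. In WT mice the plasma cell markers stood at 130 and 149 within the cluster named B lymphocytes, against 8.88, 7.47 and 10.6 in the cluster of that name in i4F mice.

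V gene UMIs were concentrated in few cells, and those cells carried plasma cell mRNA. Cells with at least 2 UMIs of Jchain, which joins secreted antibodies into multimers, held 94.1 and 96.4% of the V UMIs of WT 1 and WT 2, 93.8, 96.8 and 89.5% of those of the i4F mice and 82.6% of those of caerulein 1, where they numbered 4, 17, 23, 27, 68 and 5. A V UMI was found in 31.9 and 30.6% of B-labelled WT cells, in 13.0, 13.0 and 26.0% of i4F cells and in 1.11 and 0.754% of caerulein cells. In ductal cells, which should lack V genes, the shares were 0.266 and 0.322%, then 0.840, 0.948 and 1.14%, and 0% in both caerulein mice. The median depth of the B-labelled cells was 480.5 to 2886 UMIs per cell, and that of ductal cells 2667 to 5590. The caerulein shares were above the 0% of ductal cells of the same mice but near the ductal shares of i4F mice, and no level is read from their cells with single V UMIs. After each cell was thinned to 500 UMIs, 8.70 and 9.91% of WT cells, 10.9, 20.5 and 13.9% of i4F cells and 0.429 and 0.295% of caerulein cells held a V UMI, with 0 to 204 cells per mouse left out as shallower.

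A gene was said to lead a cell when it had at least 2 UMIs and more than any other gene of its chain. Light chain genes led 174 cells (3 and 17 in WT, 25, 27 and 95 in i4F, and 7 and 0 in caerulein mice), and heavy chain genes led 101 cells (4, 13, 19, 19, 44, 2 and 0). Without the caerulein mice, 167 and 99 cells remained, and without i4F 3, which held 95 and 44 of them, 79 and 57. No lead among 398 cells in caerulein 2 allows a share of up to 0.754% (counting error only). Of the 155 genes, 151 had a UMI in the B-labelled cells and 83 led at least 1 cell, 36 of them exactly 1. Without i4F 3, 50 genes led a cell. UMIs in 1 mouse alone were found for 78 genes, and Iglv1 was the 1 gene with UMIs in all 7 mice. A total of 62 genes had 1 to 3 UMIs, too few to rank them.

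**Figure D1:**
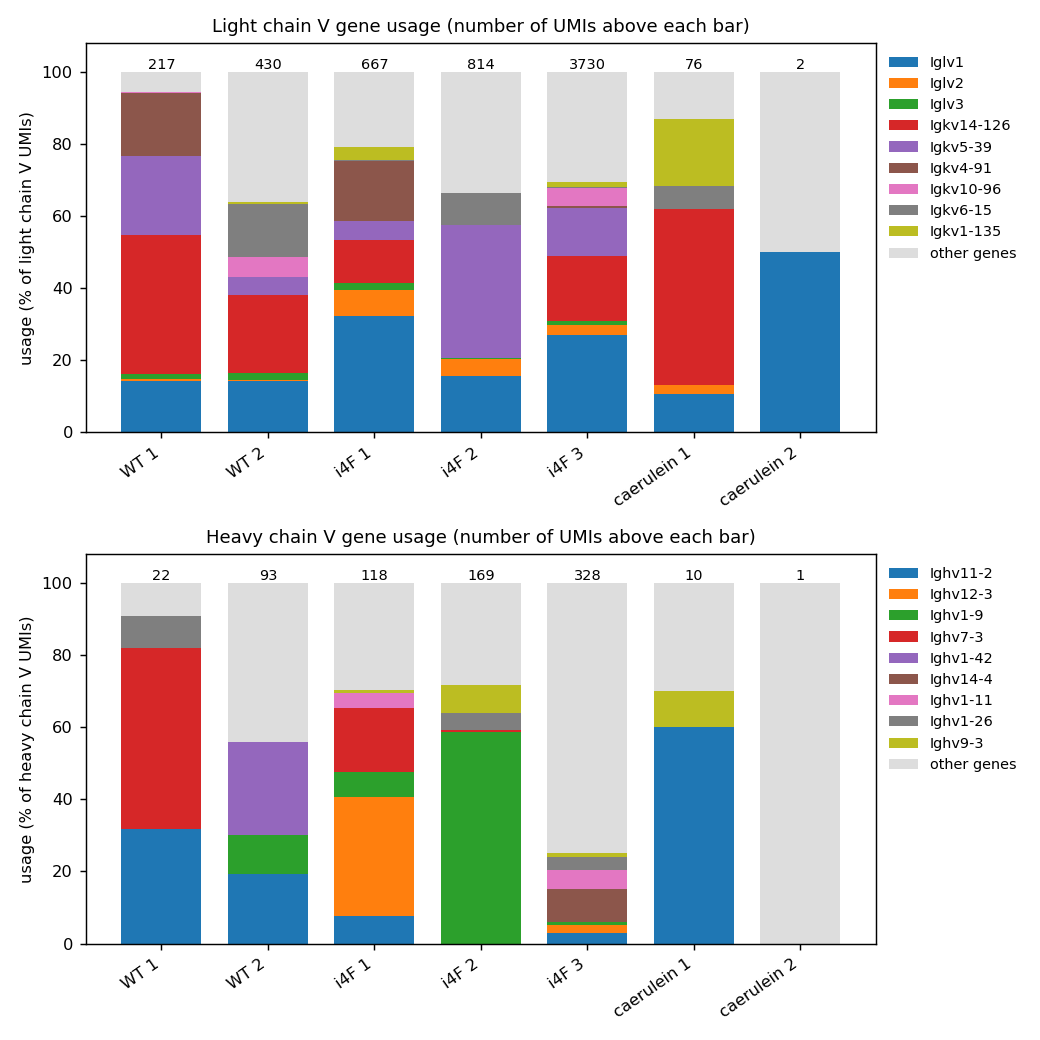
Bars give the percent of light chain (top) and heavy chain (bottom) V UMIs that each named gene held in each mouse, with the number of UMIs above the bar. Iglv1 was in every bar of the top panel, while a different heavy chain gene was the most used in each mouse, and the caerulein bars rest on 76 and 2 light chain and 10 and 1 heavy chain UMIs.

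The most used heavy chain gene was a different one in each of the 7 mice. It was Ighv7-3 in WT 1 (50.0% of 22 heavy chain UMIs), Ighv1-42 in WT 2 (25.8% of 93), Ighv12-3 in i4F 1 (33.1% of 118), Ighv1-9 in i4F 2 (58.6% of 169) and Ighv14-4 in i4F 3 (9.15% of 328). In caerulein 1 it was Ighv11-2 (60.0% of 10), and the 1 heavy chain UMI of caerulein 2 was from Ighv1-55. i4F 3, the mouse with the most UMIs, spread them most widely, over 54 Ighv genes.

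Most of these genes had their UMIs in few cells of 1 mouse. Ighv1-9 gave 99 UMIs in i4F 2, where it led 10 cells, against 0 in WT 1, 10 in WT 2, 8 in i4F 1, 3 in i4F 3 and 0 after caerulein. Ighv1-42 gave 24 UMIs in 3 cells of WT 2 and none elsewhere. Its V exon was 96.9% identical to that of Ighv1-43, so its count is uncertain. Ighv14-4 gave 30 UMIs in i4F 3, leading 5 cells, and none in the other mice. Its V exon was 95.4% identical to that of Ighv14-1. Ighv7-3 gave 11 UMIs in WT 1, 21 in i4F 1 and 1 in i4F 2, and led 3 cells. Ighv1-11 led 1 cell in i4F 1 and 5 in i4F 3, and Ighv1-26 led 4 cells in 3 mice. Ighv9-3 led 3 cells, 2 of them in i4F 2, and Ighv1-55 led 1 cell, in i4F 2.

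Ighv11-2, the B-1a gene, gave 7 and 18 UMIs (WT), 9, 0 and 10 (i4F), and 6 and 0 (caerulein). It led cells in 5 of the 7 mice, 9 in all, and was the only heavy chain gene with UMIs in 5 or more mice. Usage was 31.8 and 19.4% (WT) and 7.63, 0 and 3.05% (i4F). The WT values rest on 1 and 2 cells with its UMIs, so no difference between the groups is read from them. The other B-1a gene, Ighv12-3, gave 39 UMIs in i4F 1 and 7 in i4F 3 and none in the other mice, and led 7 and 1 cells. The Ighv1 family, with 39 genes the largest, led 52 of the 101 cells and took 18.2 and 57.0% of WT and 30.5, 73.4 and 44.5% of i4F heavy chain UMIs.

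**Figure D2:**
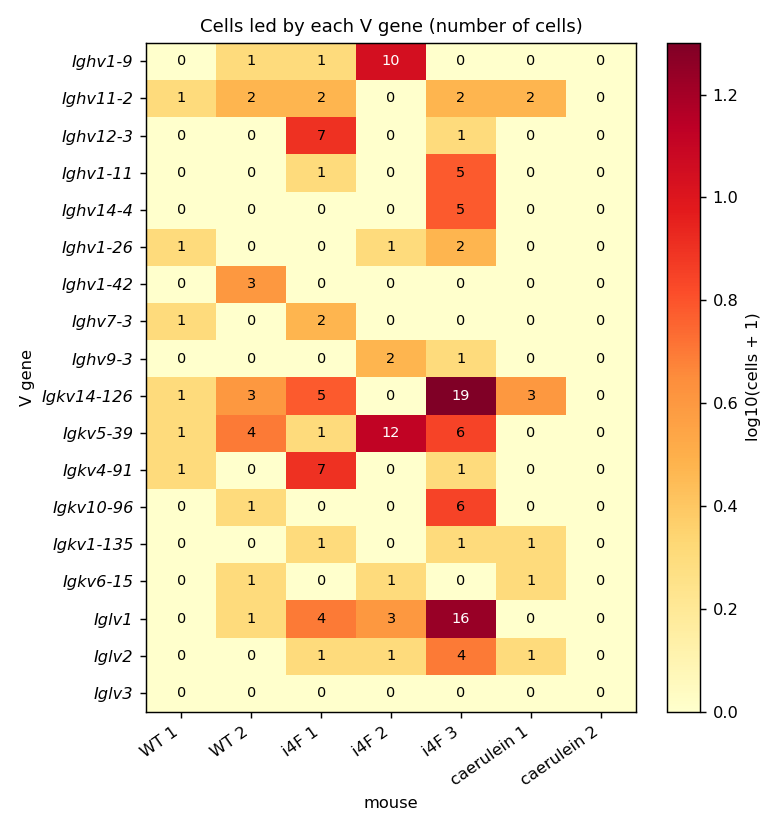
Numbers in the grid are the cells that each V gene (rows) led in each mouse (columns), shaded by log10(cells + 1). Igkv14-126 led 31 cells in 5 mice, Igkv5-39 led 24 in 5 mice and Iglv1 led 24 in 4 mice, whereas 10 of the 12 cells led by Ighv1-9 came from i4F 2.

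Several light chain genes had UMIs in most mice. Igkv14-126, the kappa partner of Ighv11-2, gave 84 and 93 UMIs (WT), 79, 0 and 678 (i4F), and 37 and 0 (caerulein). It was the most used light chain gene in both WT mice (38.7 and 21.6%) and in caerulein 1 (48.7%), and it had no UMI among the 814 light chain UMIs of i4F 2. It led 31 cells in 5 mice, or 28 without the caerulein mice and 12 without i4F 3, and all 31 had Ighm as their heavy chain class.

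Igkv5-39 gave 47 and 21 UMIs (WT), 36, 299 and 495 (i4F), and 0 and 0 (caerulein). It was the most used light chain gene of i4F 2 (36.7%), and of the 24 cells it led, 12 were in that mouse. Igkv4-91 gave 38 and 0 UMIs (WT), 110, 0 and 18 (i4F), and 0 and 0 (caerulein), and led 9 cells. Igkv10-96 led 7 cells, 6 of them in i4F 3, where it had 189 UMIs. Igkv6-15 showed how 1 cell can make a level: 71 of its UMIs in i4F 2 came from 1 cell, and it led 3 cells in all. The Igkv1 family, of 5 genes, led 10 cells, and its 14 UMIs in caerulein 1 made up 18.4% of the light chain UMIs there. Igkv10-94 led 3 cells and gave 29 UMIs in i4F 2, 5 in i4F 3, 8 in caerulein 1 and 1 in caerulein 2.

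The 3 lambda genes differed in breadth. Iglv1 gave 31 and 61 UMIs (WT), 216, 127 and 1004 (i4F), and 8 and 1 (caerulein), and was found in 138 cells. It was the most used light chain gene of i4F 1 (32.4%) and i4F 3 (26.9%), and led 24 cells in 4 mice, or 8 cells without i4F 3. Iglv2 gave 1 UMI in each WT mouse, 47, 38 and 102 UMIs over the i4F mice, and 2 and 0 after caerulein, in 22 cells, of which it led 7. Iglv3 gave 3 and 9, then 13, 3 and 42, and 0 and 0 UMIs, in 48 cells, and led none, with at most 5 UMIs in a cell.

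A lead of both chains was found in 94 cells, which held 61 distinct pairs of a heavy and a light chain V gene. Of these pairs, 52 were seen in 1 cell, 9 in at least 2 cells and 2 in more than 1 mouse. Both pairs found in more than 1 mouse were the B-1a pairs whose sequences are given above. Without i4F 3, 54 cells and 35 pairs remained, and only the pair Ighv11-2 with Igkv14-126 was in more than 1 mouse. Ighv11-2 with Igkv14-126 led 9 cells: 1 in WT 1, 2 in WT 2, 2 in i4F 1, 2 in i4F 3 and 2 in caerulein 1. Every B-labelled cell led by Ighv11-2 had Igkv14-126 as its light chain lead, and without the caerulein mice 7 such cells in 4 mice remained. These cells had 2 to 10 Ighv11-2 UMIs, 16 to 127 Igkv14-126 UMIs, 325 to 4077 Ighm UMIs and 19 to 961 Jchain UMIs. All 4 such cells of i4F mice were in the cluster named follicular B lymphocytes, which has no cells of WT or caerulein mice.

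Ighv12-3 with Igkv4-91 led 7 cells, 6 in i4F 1 and 1 in i4F 3, all of the class Ighm. They had 3 to 8 Ighv12-3 UMIs and 7 to 28 Igkv4-91 UMIs. An 8th cell led by Ighv12-3, also in i4F 1, had Iglv1 as its light chain lead, with 46 UMIs beside 20 Igkv UMIs. Its constant region was kappa, with 4244 Igkc UMIs against 25 of Iglc1, Iglc2 and Iglc3 together. Among Ighv12-3 and Igkv4-91 cells, 1 Igkv4-91 lead was in a WT 1 cell, whose heavy chain lead was Ighv7-3 and whose class was Ighg2c.

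Other recurrent pairs were each found in 1 mouse. Ighv1-9 with Igkv5-39 led 9 cells of i4F 2, 8 of the class Ighm and 1 of Ighg2b, with 5 to 17 heavy chain and 15 to 38 light chain lead UMIs. Ighv14-4 with Iglv1 led 5 cells of i4F 3, with 43 to 155 Iglv1 UMIs. Ighv1-11 with Igkv14-126 led 4 cells of i4F 3, where the light chain lead was narrow. Igkv14-126 held 52.0 to 69.4% of their light chain UMIs, and a second light chain gene had 21 to 43 UMIs. In the other Ighv1-11 cell of i4F 3, Igkv5-39 led with 34 of 62 light chain UMIs and a second gene had 25. The remaining 4 recurrent pairs were seen in 2 cells each, all in i4F 3. The 18 cells led by Igkv5-39 that also had a heavy chain lead held 9 heavy chain genes, and the 13 such cells of Igkv14-126 held 2. The junctions that would tell whether cells of a pair are 1 clone were not read by this assay.

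**Figure D3:**
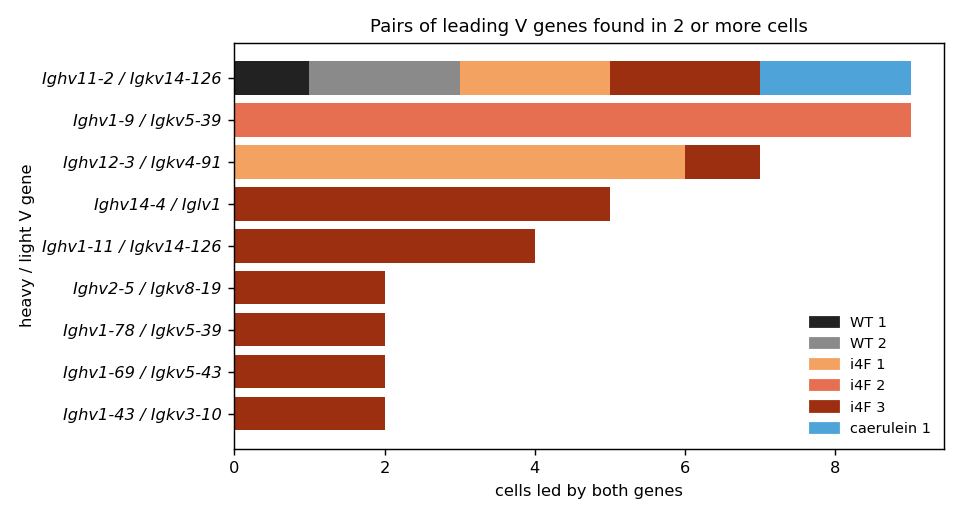
Bars give the number of cells led by each pair of heavy and light chain V genes found in at least 2 cells, split by mouse. Ighv11-2 with Igkv14-126 came from 5 mice and Ighv12-3 with Igkv4-91 from 2, while the 7 other pairs came from 1 mouse each.

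The heavy chain class of the cells with a lead was mostly Ighm. By the constant region gene with the most UMIs, 160 of the 181 cells with a heavy or light chain lead were Ighm (IgM), 9 Ighg2b, 3 Ighg1, 3 Ighg2c, 2 Igha, 1 Ighg3 and 1 Ighd, and 2 had none. The Ighg1 and Ighg3 cells and 8 of the 9 Ighg2b cells came from i4F 3, which held 99 of the 181. At least 2 Jchain UMIs were found in 138 of them, and 111 were in the cluster named follicular B lymphocytes.

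Within a cell, 1 light chain gene usually took most of the UMIs. In the 120 cells with at least 10 light chain V UMIs, the leading gene held a median of 88.8% of them, with a lowest value of 43.3%. Even so, 69 cells held at least 2 kappa and at least 2 lambda V UMIs. The constant region of the same cell gave another view of its chain: of the 143 cells led by a kappa V gene, 142 had more Igkc than Iglc1, Iglc2 and Iglc3 UMIs together (Iglc in what follows), while of the 31 led by a lambda V gene, 21 had more Iglc. Cells were then called Igkc-rich or Iglc-rich when the constant region had at least 100 UMIs and at least 10 times as many as the other, limits chosen after the values were seen.

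Iglv1 mRNA was found in most Igkc-rich cells. The 134 Igkc-rich cells held 439805 Igkc and 4576 Iglc UMIs, and 3902 Igkv UMIs, but also 681 Iglv UMIs, of which 627 were Iglv1. Iglv1 was present in 84 of these cells (62.7%, exact 95% binomial interval 53.9 to 70.9) and led 8 of them. Iglv2 was present in 5 (3.73%, 1.22 to 8.49), although its V exon is nearly the same as that of Iglv1, and Iglv3 in 33 (24.6%, 17.6 to 32.8). These intervals pool the cells of all mice and cover counting error only, not the spread between mice. The 15 Iglc-rich cells held 39956 Iglc, 687 Iglv1, 175 Iglv2 and 9 Iglv3 UMIs, and 1 Igkv UMI.

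The Iglv1 UMIs of Igkc-rich cells were seen in all mice with such cells. Iglv1 was in 2 of 4 cells of WT 1, 9 of 16 of WT 2, 19 of 23 of i4F 1, 16 of 25 of i4F 2, 34 of 60 of i4F 3 and 4 of 6 of caerulein 1. Its UMIs per 1000 Igkc UMIs in these cells were 1.04 and 0.771 (WT), 2.51, 1.45 and 1.42 (i4F), and 0.606 (caerulein 1). In the 118 Igkc-rich cells led by a kappa gene, 74 had Iglv1, with a median of 3 UMIs where present and a highest value of 31, beside a median of 22 UMIs of the leading kappa gene. In the 3586 B-labelled cells with under 100 UMIs of both constant regions, 0.948% had Iglv1 (median depth 1110 UMIs, against 5906.5 in Igkc-rich cells), and in 2922 ductal cells 0.137% (median depth 4334). The part of RNA from other cells, of doublets and of read assignment in these counts was not tested.

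**Figure D4:**
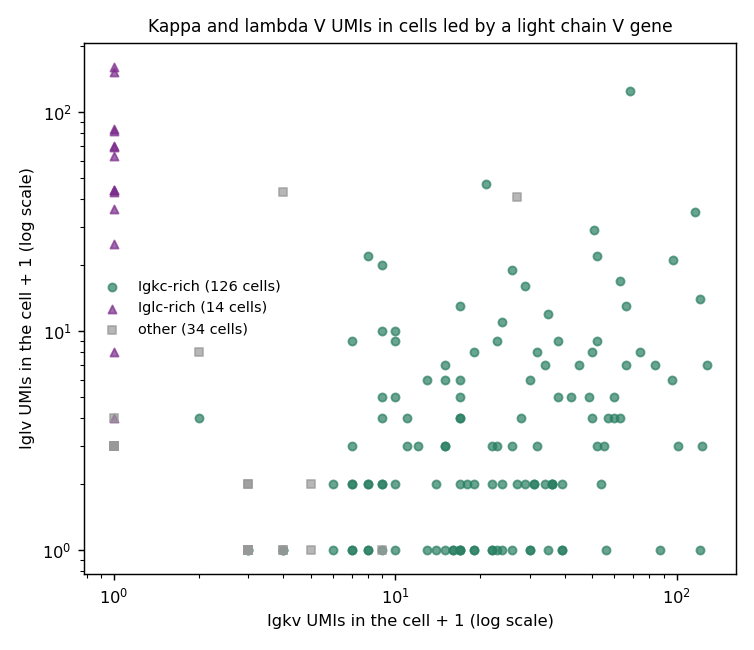
Each point is 1 of the 174 cells led by a light chain V gene, with its Igkv UMIs on the x axis and its Iglv UMIs on the y axis, both plus 1 and on a log scale, coloured by the constant region. Of the 126 Igkc-rich cells 92 had UMIs of both kinds, and of the 14 Iglc-rich cells 0 had.

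The design asks whether V gene use differed in reprogrammed and in injured pancreas from that in WT pancreas, with the mouse as the replicate. V genes made up 11.1 and 12.5 of 10000 UMIs of B-labelled WT cells (11.8 ± 0.983, SD, n = 2) and 13.4, 29.6 and 17.9 of B-labelled i4F cells (20.3 ± 8.34, n = 3). All i4F values lay above both WT values, and within the library name series of WT 1 the order was the same. The difference of 8.55 per 10000 was 3.90 without i4F 2 and 18.1 in cells with at least 500 genes. The exact two-sided permutation test gave p = 0.2, the smallest value that 3 mice against 2 allow. Without the cluster named follicular B lymphocytes, where the plasma cell markers of i4F mice were, the i4F values were 1.03, 1.53 and 2.25, below WT, so the direction rests on cells that the authors' clustering set apart in i4F mice only. Cells with at least 2 Jchain UMIs made up 8.51 and 15.3% of the B-labelled WT cells and 4.82, 7.30 and 5.01% of the i4F cells. They held 56.3 and 29.6 V UMIs per cell (WT) against 32.0, 35.3 and 53.4 (i4F), with overlapping groups.

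Caerulein mice had 0.316 and 0.0529 V UMIs per 10000, both below the WT values, also against WT 2 of the same library name series, with an exact permutation p of 0.333, the smallest for 2 against 2. Only 7.44 and 6.28% of these cells had a B lineage UMI, and the part of this in the low rate was not tested. In the cells with such a UMI alone, the mean caerulein rate was 3.06 in place of 0.185 per 10000, so that the WT mean was 3.85-fold in place of 63.7-fold higher.

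The share of lambda genes among light chain V UMIs was higher in each i4F mouse than in either WT mouse. The WT shares were 16.1 and 16.5% (exact 95% binomial intervals 11.5 to 21.7 and 13.1 to 20.4, counting error only) and the i4F shares 41.4, 20.6 and 30.8% (37.6 to 45.2, 17.9 to 23.6 and 29.3 to 32.3). The groups did not overlap, with a difference of 14.6 percentage points and an exact permutation p of 0.2, which cannot be lower here. There were 1 and 0 Iglc-rich cells among 47 and 111 B-labelled WT cells, and 2, 1 and 10 among 477, 370 and 1357 B-labelled i4F cells. The numbers of cells differ widely, so no difference between the groups is read from these counts. Without the cluster named follicular B lymphocytes the mean shares were 24.1% (i4F) and 16.3% (WT), with an exact permutation p of 0.6. The difference was 9.39 percentage points without i4F 1 and 19.8 without i4F 2. When each cell with a light chain lead counted once, lambda genes led a mean of 18.6% (i4F) and 2.94% (WT) of them. The WT value rests on 1 of the 17 such cells of WT 2, led by Iglv1 but Igkc-rich (4122 Igkc and 64 Iglc UMIs). In WT 1 a single cell held 28 of the 31 Iglv1 UMIs. A look at Igkc-rich cells alone was chosen after the data were seen, and it leaves out cells rich in lambda constant region by its definition. There the shares were 31.5, 10.7 and 12.4% (i4F, mean 18.2%) and 16.6 and 16.5% (WT, mean 16.5%). In these cells i4F 2 and i4F 3 lay below both WT mice, and no test is given. In caerulein 1 the share was 13.2% of 76 UMIs, and in caerulein 2 it was 1 of 2 UMIs, which allows no reading (exact permutation p = 1).

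**Figure D5:**
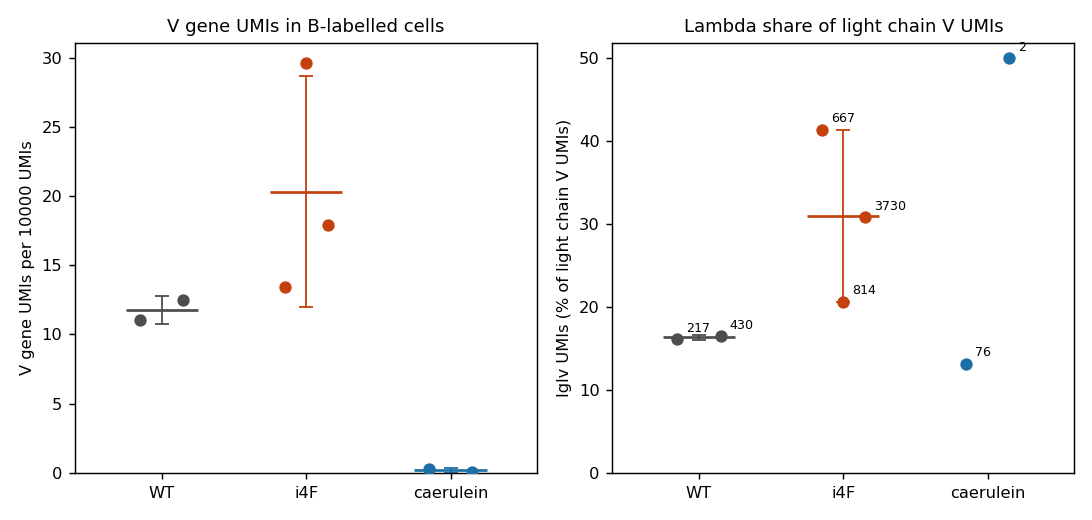
Points are mice, with the V UMIs per 10000 UMIs of B-labelled cells (left) and the lambda share of light chain V UMIs with its number of UMIs beside each point (right). Lines and bars are means and SDs, left out for the lambda share in caerulein mice because 1 value rests on 2 UMIs, and the 3 i4F mice lie above both WT mice in both panels.

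The concentration of use did not separate i4F from WT mice. The most used heavy chain gene took 50.0 and 25.8% (WT) against 33.1, 58.6 and 9.15% (i4F), and the most used light chain gene 38.7 and 21.6% against 32.4, 36.7 and 26.9%, with overlapping groups and an exact permutation p of 1 for each. Cells with a light chain lead were 6.38 and 15.3% of B-labelled WT cells and 5.24, 7.30 and 7.00% of i4F cells (exact permutation p = 0.6). Cells with a heavy chain lead were 8.51 and 11.7% of WT and 3.98, 5.14 and 3.24% of i4F cells, all lower (exact permutation p = 0.2). At 500 UMIs per cell, which left out 1 and 0 WT cells but 118, 204 and 41 i4F cells as shallower, the light chain shares became 0 and 1.80% (WT) against 2.51, 13.9 and 3.95% (i4F), and the heavy chain shares 0 and 0.901% against 0.836, 1.81 and 0.152%, so that in the cells kept all i4F light chain shares lay above WT (exact permutation p = 0.2) and the heavy chain shares overlapped (exact permutation p = 0.6).

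Gene by gene, UMIs of B-labelled cells were summed per mouse and tested over all genes with edgeR's quasi-likelihood test and Benjamini-Hochberg adjustment, in which 18 V genes passed the filter on low counts. In i4F against WT, 0 of these 18 passed an adjusted p of 0.05, where 0.0156% of the 6425 genes tested did. At an unadjusted p under 0.05 there were 4 of the 18: Iglv1, Iglv2 and Igkv6-17, which were higher, and Ighv11-2, which was lower. The WT mice had no UMI of 2 of the 18, Igkv6-17 and Igkv8-27, which passed the filter through the i4F mice alone. The count of 4 is therefore not read against the 8.64% of all genes under this p. DESeq2 called 2, Iglv1 and Iglv2, where it called 0.473% of all genes. Iglv2 had 1 UMI in each WT mouse and passed the filter through the i4F mice alone. The DESeq2 count is therefore not read against its 0.473% either. Iglv1 stood at 1.44 and 1.45 per 10000 UMIs (WT) against 3.70, 3.82 and 4.43 (i4F), with no overlap (log2 fold change 1.46, SE 0.26, edgeR adjusted p = 0.193). Iglv2 stood at 0.0463 and 0.0238 (WT, on 1 UMI each) against 0.805, 1.14 and 0.450 (i4F), again with no overlap (log2 fold change 4.51, SE 0.75, edgeR adjusted p = 0.166), and 1 cell in each i4F mouse held 28 of 47, 37 of 38 and 64 of 102 of its UMIs. Without the cluster named follicular B lymphocytes the Iglv1 fold change was -3.05 on the log2 scale (edgeR adjusted p = 0.0299). That cluster held most V UMIs of the i4F mice and no WT cell, so this value is not read as a result. Ighv11-2 had a log2 fold change of -2.55 (SE 0.81, edgeR adjusted p = 0.558).

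In caerulein against WT, 5 of the 18 V genes were lower and 0 higher, where 8.23% of the genes tested were lower, 8.14% higher and 16.4% called in either direction. The caerulein mice had no UMI of 12 of the 18, which passed the filter through the WT or i4F mice alone and could hardly be higher, so the count is not read against these shares. Without TMM the median of all genes moved by 0.32 on the log2 scale and calls went from 523 higher and 529 lower to 821 and 352, while the V genes stayed at 5 lower and 0 higher. The genes called lower were Iglv1, Iglv3, Igkv5-39, Igkv14-126 and Ighv11-2. The log2 fold change was -5.98 for Iglv1 (SE 0.38, edgeR adjusted p = 0.000116), -5.25 for Igkv14-126 (SE 1.40, adjusted p = 0.0352) and -4.68 for Ighv11-2 (SE 0.98, adjusted p = 0.0150). Igkv5-39 and Iglv3 had no UMI in the caerulein mice, where a floor of 3 UMIs over the group makes them at least 117-fold and at least 20.7-fold lower (edgeR adjusted p = 0.0237 and 0.00516). The limit for Igkv5-39, whose 47 UMIs in WT 1 came from 1 cell, was 54.8-fold without WT 1, 239-fold without WT 2 and 20.2-fold without caerulein 1, and that for Iglv3 was 3.57-fold without caerulein 1. With the cells that had a B lineage UMI alone, 0 of 12 tested V genes passed, where 0.794% of all genes did. There, the log2 fold change was -2.03 for Iglv1 (edgeR adjusted p = 0.0565), -1.31 for Igkv14-126 (adjusted p = 0.685) and -0.80 for Ighv11-2 (adjusted p = 0.785), while Igkv5-39 remained without a UMI in caerulein mice (adjusted p = 0.276). Iglv1 passed whichever WT or caerulein mouse was left out, Iglv3 did except without caerulein 1, and Igkv5-39 only without WT 2. Igkv14-126 and Ighv11-2 lost their call with any 1 of these 4 mice left out.

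Of 30 genes of antibody assembly, class and secretion, 28 had a row and 21 were tested. In i4F against WT none of the 21 passed (edgeR, adjusted p under 0.05), where 0.0156% of all genes did, with a median log2 fold change of -0.09, against 0.06 over all genes tested. Ighg2b, an IgG class, had a log2 fold change of 7.58 (SE 2.00, edgeR adjusted p = 0.462) and Ighg2c, another, -1.46 (SE 2.07, adjusted p = 0.863). Per 10000 UMIs, Ighg2b stood at 0 and 0.334 (WT) against 0.360, 57.2 and 57.3 (i4F), so i4F 1 was near WT 2. Ighg2c stood at 61.6 and 0 (WT) against 0.223, 29.8 and 1.17 (i4F). Of the lambda constant regions, Iglc1 had 2.84 (SE 0.60, edgeR adjusted p = 0.324), Iglc2 1.91 (SE 0.67, adjusted p = 0.558) and Iglc3 -1.40 (SE 0.47, adjusted p = 0.558). In caerulein against WT 14 of the 21 were lower and 0 higher, where 8.23% of all genes were lower and 8.14% higher. These included Ighm (log2 fold change -6.43, SE 0.90, edgeR adjusted p = 0.00273), Igkc (-6.96, SE 1.21, adjusted p = 0.00695), Jchain (-8.69, SE 1.15, adjusted p = 0.00219) and the receptor subunit Cd79a (-5.95, SE 0.36, adjusted p = 0.000111). The part of the low share of caerulein cells with a B lineage UMI (7.44 and 6.28%) in these values was not tested.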

How the data were processed

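Per the labels and methods, the authors made 10x Genomics 3′ v3 libraries from dissociated pancreas, aligned them to GRCm38 (mm10) with Cell Ranger, and filtered and clustered the cells of each condition in Seurat, with SoupX for ambient RNA. The deposited count tables hold whole UMI counts per gene and cell. Whether SoupX had been applied to them is not stated. Cluster names are the authors', and doublets were not removed here.

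The V genes, the gene lists and the tests were chosen with earlier results of these data known. Genes were named by usage, cells led, the lambda class, the B-1a pairs and fold change among called genes. Per-mouse values were compared with exact two-sided permutation tests (scipy 1.17.1). Summed UMIs were tested in edgeR 4.0.16 (7 mice, 3 groups, TMM, filterByExpr, quasi-likelihood, adjusted p threshold 0.05), with standard errors taken as the log2 fold change over the square root of F, after a check on simulated data with 200 changed genes. Alternatives were DESeq2 1.42.0, fits without TMM, without the filter, on fewer groups, with a replicate block or with the library name series, subsets of cells, other lead limits, thinning, and each mouse left out. V exons came from GENCODE vM21. Replicates are separate mice, and the labels name no litters or days. Intervals and floors cover counting error only.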

Additional observations from a re-analysis of the deposited data

Results flagged for a closer look

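Cells outside the B labels were not used in the comparisons, yet some held at least 10 V gene UMIs where no WT cell did: 3 cells in i4F 1, 2 in i4F 2, 1 in i4F 3 and 1 in caerulein 1, against 0 in both WT mice. The cells of i4F 1 were labelled acinar (49 V UMIs, with Ighv11-2 as heavy chain lead and no light chain lead) and ductal (20 and 14 V UMIs, both led by Iglv1). Those of i4F 2 were labelled macrophages (21 V UMIs, led by Igkv5-39, with 304 Igha UMIs) and smooth muscle (16 V UMIs, led by Igkv4-86). The cell of i4F 3 was labelled acinar (14 V UMIs, all Igkv4-55), and that of caerulein 1 macrophages (25 V UMIs, led by Igkv1-117, with 665 Igha UMIs). All 7 had Jchain UMIs, from 16 to 246. The genes named here that the rule did not choose were named after their values were seen.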

How the results depend on the processing

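Of 203 recomputed values, 149 were counted as unchanged. For per-mouse values this means the same direction, and for single V genes also the same side of the threshold. For counts of called V genes it means within 1.5 times, whichever genes were called. A further 15 values reversed, 13 counts of called V genes moved by over 1.5 times or from 0, and the others are V genes that crossed the threshold. The i4F minus WT differences, in percentage points unless given otherwise, changed sign without the cluster named follicular B lymphocytes for the V UMI rate (-10.2 per 10000) and the top light chain share (-8.90), and the Iglv1 log2 fold change became -3.05. They reversed in cells with at least 500 genes for light chain leads (9.81) and heavy chain leads (5.19), at 500 UMIs per cell for the same (5.87 and 0.481), and with each cell counted as 1 for the top heavy chain share (9.57). The caerulein minus WT lambda share was -9.74 in cells with at least 500 genes. With 1 mouse left out, this share ranged from -3.16 (without caerulein 2) to 33.7, the top heavy chain share from -16.8 to 7.91, the top light chain share from -6.70 to 10.4 and light chain leads from -8.80 to 0.130. V genes called in i4F against WT numbered 0, but 2 with DESeq2 (0.473% of all genes) and 21 of 151 without the filter on low counts (0.757%). With 1 i4F mouse left out they numbered 0 to 1 (Iglv2, without i4F 3, 0.429%). Without the cluster named follicular B lymphocytes they were 3 of 4, all lower (0.373%). That cluster held most V UMIs of the i4F mice and no WT cell, so neither this count nor the Iglv1 fold change without the cluster is read as a result. V genes called in caerulein against WT numbered 5 (16.4% of all genes), but 22 of 151 without the filter (7.23%), 3 with the library name series as a term (7.55%) and 0 in cells with a B lineage UMI (0.794%). With 1 mouse left out they numbered 1 (without caerulein 1, 4.21%), 2 (without caerulein 2, 5.96%), 3 (without WT 2, 8.55%) to 6 (without WT 1, 6.61%), and of these 6 only Iglv1 and Iglv3 are among the 5. The causes were not tested. Few UMIs kept most V genes out of the tests: 18 of 155 passed the filter on low counts.

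The mice share only a replicate number, and no label pairs them. Correlations of same-numbered deviations were -0.096 and 0.0124 (WT with i4F) and -0.293 (WT with caerulein). In a group of 2 mice the deviations mirror each other, so crossed numbers gave 0.293 for WT with caerulein. These values cannot show whether mice were paired. With a replicate block, V genes called were 2 (Ighv1-9 and Iglv2) for i4F (0.405% of all genes) and 12 for caerulein (15.0%). With the caerulein numbers crossed, an analysis added after seeing the data, 12 V genes were called (20.9%).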

Other observations

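Among the cells with a heavy and a light chain lead, Iglv1 was found with 10 heavy chain genes in 14 cells, and Ighv14-4 in i4F 3 accounted for 5 of them. The cells with Ighv1-42, Ighv12-3, Ighv1-11, Ighv1-76, Ighv1-26, Ighv1-69 or Ighv1-81 were Igkc-rich. These pairs are therefore not read as antibodies with a lambda chain. The 24 cells led by Iglv1 were 23 of the class Ighm and 1 of Ighg2b. In the 19 cells where neither light chain constant region had 10 times the UMIs of the other, Igkv and Iglv genes gave 56 and 98 UMIs, and 7 cells had Iglv1.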
